A study of Mus musculus with 36 samples.

Results

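Primary mouse embryonic fibroblasts (MEFs) without a glucocorticoid receptor (GR) were compared with wild-type MEFs that had received solvent only, in 6 of the 36 RNA-seq libraries of the series. These were the 3 GRko/ko and the 3 GRwt/wt vehicle libraries of run 1, chosen by genotype, treatment and run, and genes on the autosomes are described. In the series, MEFs of 5 GR genotypes were given 1 µM dexamethasone (Dex), a synthetic GR ligand, or solvent for 5 h in 2 sequencing runs, and GRko/ko cells were present in run 1 only. The other run 1 genotypes were GRD/D, with a point mutation in the dimer interface of the DNA-binding domain, and GRD+L/D+L, with a further point mutation in the ligand-binding domain, and run 2 held GRL/L and a further set of GRwt/wt cultures. The study describes the libraries of a group as primary cultures that each came from a different mouse embryo of mid-gestation. The cultures were made after removal of the head and the organs, so the cells of a culture are a mixture of mesenchymal and other cells. The culture medium held fetal calf serum, for which no removal of steroids was described, so vehicle does not mean free of glucocorticoid.

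The labels give the FVB/NJ strain for both genotypes, whereas the study's methods place the mice that gave the GRko/ko embryos on a 129, Sv background. Strain and genotype cannot be told apart in these libraries. The levels of Xist and of Y-linked genes also separated the 3 GRko/ko from the 3 GRwt/wt libraries, so the sex of the embryos and the genotype cannot be told apart, and X- and Y-linked genes were left out.

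GR is a nuclear receptor that is held in the cytosol by Hsp90 and its co-chaperones until a glucocorticoid binds. The receptor then enters the nucleus, where it raises genes such as Fkbp5, Per1 and the metallothioneins at glucocorticoid response elements and lowers cytokine and matrix genes, in part by tethering to other transcription factors. In connective tissue, glucocorticoids are known for restraining inflammation, collagen synthesis and wound repair.

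Nr3c1, the gene of GR, lies on chromosome 18 (GRCm38, chr18:39410545-39519421, minus strand). It was measured at 16.1, 18.0 and 15.9 CPM (counts scaled to the size of each library) in the GRko/ko libraries and at 67.2, 69.2 and 74.3 CPM in the GRwt/wt libraries. All 3 GRko/ko libraries lay below all 3 GRwt/wt libraries, at 23.7% of the wild-type mean, and the log2 fold change (GRko/ko minus GRwt/wt, edgeR quasi-likelihood test) was -2.08 ± 0.07 (SE, n = 3 per group; adjusted p = 2.44e-23). Errors of fold changes are standard errors for contrasts with n = 3 per group throughout. Each was computed as the size of the log2 fold change over the root of its F statistic. The spread behind it was estimated in the fit of all 36 libraries. Differences given without a unit are log2 fold changes in this direction. Gene counts do not give the exons that the remaining reads came from. The GRD/D libraries held 73.2, 83.05 and 78.3 CPM and the GRD+L/D+L libraries 98.9, 98.9 and 93.6 CPM. The 6 libraries held 15280166 to 17864131 counts, and fibroblast genes were high in all of them: the summed level of 15 fibroblast markers was 52163 to 54601 CPM in GRko/ko and 47861 to 51962 CPM in GRwt/wt.

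**Figure D1:**
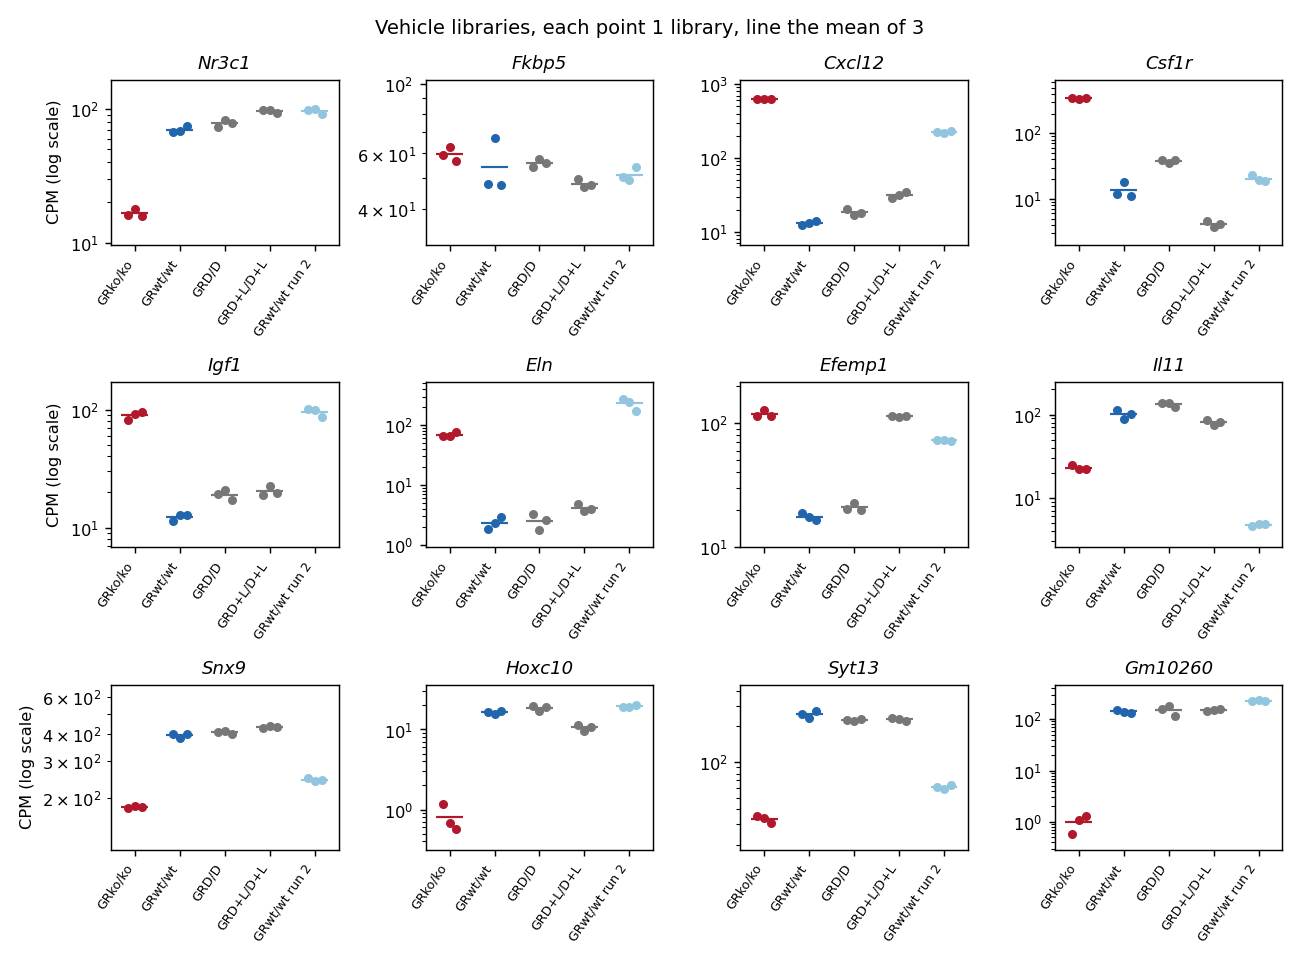
Levels of 12 genes in the vehicle libraries, in CPM on a log axis, each point 1 library and each line the mean of 3, for GRko/ko, GRwt/wt, GRD/D and GRD+L/D+L of run 1 and for GRwt/wt of run 2. The GRko/ko libraries are low for Nr3c1, Il11, Snx9, Hoxc10, Syt13 and Gm10260 and high for Cxcl12, Csf1r, Igf1, Eln and Efemp1 against GRwt/wt of run 1, Fkbp5 overlaps between these groups, and the run 2 wild type lies above GRko/ko for Eln.

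Of 14942 autosomal genes tested, 2118 (14.2%) were called, meaning an adjusted p of at most 0.05 and a log2 fold change of at least 1 in size. Of these, 1463 (9.79% of the genes tested) were higher and 655 (4.38%) lower in GRko/ko, while the median log2 fold change over all autosomal genes was 0.02. The calls included 1075 genes past a log2 fold change of 2, of which 818 were higher and 257 lower. In the 10959 genes whose mean over the 6 libraries reached 50 counts, 940 were called, 660 higher and 280 lower. Leaving out any 1 of the 6 libraries gave 2069 to 2130 calls, and requiring at least 10 counts in every library of the series left 792. By type of gene, 13.8% of 13241 protein-coding genes, 15.1% of 1140 lncRNA and other genes and 21.4% of 561 pseudogenes were called. The protein-coding calls were mostly higher in GRko/ko (1327 higher and 499 lower), and the pseudogene calls were more even (54 higher and 66 lower).

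GRko/ko differed from the point mutants of the same run in about as many genes as from wild type. The contrast with GRD/D called 2073 genes (13.9%) and the contrast with GRD+L/D+L called 2158 (14.4%). GRD/D against GRwt/wt called 319 genes (2.13%) and GRD+L/D+L against GRwt/wt 826 (5.53%). These contrasts share libraries, so they are set side by side only. Wild-type cultures also differed between the runs: GRwt/wt of run 2 against GRwt/wt of run 1 called 3382 genes (22.6%). The levels of Xist and of Y-linked genes separated these groups too, so run and sex cannot be told apart there. GRD+L/D+L and GRwt/wt of run 2 had the sex pattern of GRko/ko, and GRD/D had that of GRwt/wt of run 1. GRko/ko against GRwt/wt of run 2 called 3838 (25.7%), where run and genotype cannot be told apart. The run 2 wild-type level is therefore given beside the leading genes.

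**Figure D2:**
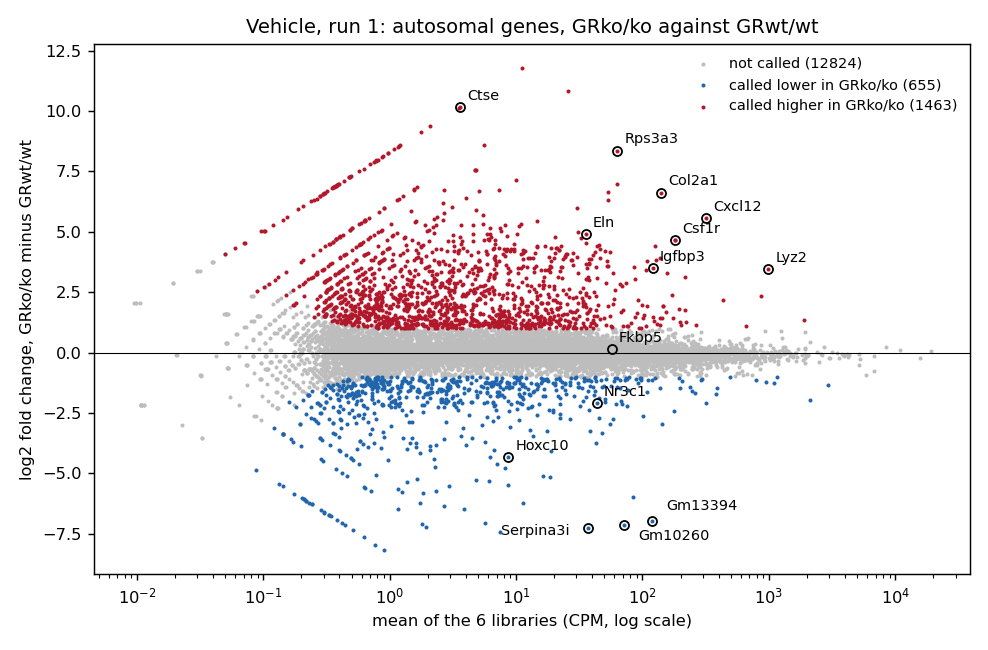
Log2 fold change of each autosomal gene (GRko/ko minus GRwt/wt, vertical axis) against its mean CPM over the 6 libraries (horizontal log axis), with 1463 genes called higher in red, 655 called lower in blue and the others in grey. Fkbp5 sits near 0, Rps3a3, Col2a1 and Cxcl12 far above and Gm10260, Gm13394 and Serpina3i far below, and the outer slanted rays are genes with 0 counts in one group, whose fitted value is set by the prior count.

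Cxcl12, a chemokine that stromal cells make to hold CXCR4-bearing cells, had the smallest adjusted p of the genes that were higher in GRko/ko. It stood at 619, 622 and 627 CPM in GRko/ko and at 12.3, 13.1 and 13.9 CPM in GRwt/wt, a log2 fold change of 5.57 ± 0.09 (adjusted p = 9.59e-34). The point mutants were at 20.4, 17.1 and 18.0 CPM (GRD/D) and 28.9, 31.6 and 34.5 CPM (GRD+L/D+L), and the wild type of run 2 was at 222, 219 and 229 CPM. Apobec1, a cytidine deaminase that edits mRNA, was at 93.4, 100.2 and 91.7 CPM in GRko/ko and 3.96, 6.37 and 5.25 CPM in GRwt/wt, with no overlap (4.20 on the log2 scale). The other genes of smallest adjusted p in this direction were Rps3a3, Cx3cr1 and Csf1r, given with their groups.

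Among the genes that were lower, Syt13, a synaptotagmin of vesicle traffic, had 35.0, 33.5 and 30.5 CPM in GRko/ko and 254, 237 and 269.6 CPM in GRwt/wt, a log2 fold change of -2.94 ± 0.07 (adjusted p = 6.21e-29). The groups did not overlap, and in run 2 the wild-type level was 62.1, 59.2 and 64.2 CPM, above GRko/ko. Slc6a17, a transporter of neutral amino acids into vesicles, and Snx9, a sorting nexin of endocytosis, were also lower without overlap (-3.35 and -1.14 on the log2 scale). Snx9 was a small difference measured at depth, with 178, 183 and 180.0 CPM against 403, 387 and 399.7 CPM.

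The largest log2 fold changes fell on single loci that were nearly silent in one genotype. Rps3a3, a copy of a ribosomal protein gene, stood at 125, 118 and 134 CPM in GRko/ko and at 0.260, 0.548 and 0.324 CPM in GRwt/wt. Rps15a-ps8 had 23.1, 20.5 and 22.7 CPM in GRko/ko and no count in any GRwt/wt library, which at a floor of 3 counts per library makes it at least 111-fold higher. Rps13-ps1 had 2605 counts over the GRko/ko libraries and 1 over the GRwt/wt libraries, a depth-scaled ratio of 2345 (95% counting interval 420.5 to 92650.0). In the other direction, the predicted gene Gm10260 was at 0.588, 1.08 and 1.33 CPM in GRko/ko and 152, 140.1 and 132 CPM in GRwt/wt. Gm13394 was at 1.41, 2.32 and 1.90 CPM against 248, 232 and 226 CPM, and Gm4735 was lower as well, at -6.20. Each of these loci was near 0 in all 3 libraries of one genotype and well above it in all 3 of the other. Ribosomal pseudogenes are near-identical copies and only uniquely mapped reads had been counted, so their counts depend on which copy a read was assigned to.

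Further loci of the same kind were protein families with many copies. Serpina3i, Serpina3h and Serpina3e-ps, neighbours in a cluster of serine protease inhibitors on chromosome 12, were lower in GRko/ko, with log2 fold changes of -7.26, -5.99 and -5.31. Serpina3h was at 2.35, 3.63 and 1.77 CPM in GRko/ko and 168, 170.4 and 160.2 CPM in GRwt/wt, and at 135, 152 and 131 CPM in GRD/D and 166, 177 and 159 CPM in GRD+L/D+L. H2-Q2, H2-T10 and Gm8909, on chromosome 17 in or beside the class I genes of the major histocompatibility complex (MHC), were lower, at -6.49, -5.46 and -7.05. Apol10b, of the apolipoprotein L family, and the uncharacterised 3300005D01Rik and BC023719 were lower, at -5.28, -5.15 and -7.43, the last not a coding gene and counted with strand handling that is not given in the sources used here. On the higher side, AC165951.1 and Ctse, the aspartic protease cathepsin E, had no count in GRwt/wt and were at least 35.7-fold and at least 36.4-fold higher, while Gm45456 was at 9.47, 10.8 and 7.84 CPM against 0.0650, 0.0690 and 0 CPM. The loci of this paragraph and the one before are members of multigene families or unnamed transcripts for the most part, and whether the strain of the embryos bears on the reads of such copies was not tested.

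Genes listed as glucocorticoid targets were not lower as a group in the cells without the receptor under vehicle. Of 26 such target genes, all tested, 5 (19.2%) were called higher in GRko/ko and none lower, beside 9.79% and 4.38% of all autosomal genes, with a median log2 fold change of 0.10. The summed level of the 26 was 2521 to 2615 CPM in GRko/ko and 2329 to 2555 CPM in GRwt/wt, which overlap. Fkbp5, a co-chaperone of GR and a standard marker of its activity, stood at 59.2, 63.1 and 56.6 CPM in GRko/ko and 47.8, 67.4 and 47.6 CPM in GRwt/wt. These groups overlap, and the log2 fold change was 0.14 ± 0.07 (adjusted p = 0.124). Dusp1, a phosphatase that switches off MAP kinases, was 65.0, 64.9 and 61.9 CPM in GRko/ko and 49.6, 50.6 and 54.6 CPM in GRwt/wt, a log2 fold change of 0.31 ± 0.06 (adjusted p = 4.35e-05) that passed the adjusted p but not the fold limit.

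The values of 6 further targets were known when they were chosen. The metallothioneins Mt1 and Mt2, which bind zinc and copper, had log2 fold changes of -0.56 and -0.57, and the clock gene Per1 and the transcription factor Klf9 had -0.29 and -0.15. Each of these 4 passed the adjusted p with a value under the fold limit. Nfkbia, the inhibitor of NF-kappaB, was at 41.6, 35.1 and 37.7 CPM in GRko/ko and 19.2, 21.5 and 18.8 CPM in GRwt/wt (0.94), just under the fold limit. Sgk1, a kinase that regulates ion transport, was at 88.7, 93.5 and 84.3 CPM in GRko/ko and 77.9, 98.9 and 78.4 CPM in GRwt/wt, which overlap (0.07, adjusted p = 0.402).

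Sgk1 was the only one of 22 target genes with a RefSeq promoter whose 250 bases before the start hold a full palindromic glucocorticoid response element, searched as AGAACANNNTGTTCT, which reads the same on both strands. The motif stood in 3 of 27025 promoters of that length (0.0111%). The Sgk1 promoter is printed here because it shows the kind of element that GR is known to bind, beside a gene whose level did not pass the test between the genotypes under vehicle. Under Dex, Sgk1 was called lower in GRko/ko, with a log2 fold change of -1.265 (edgeR, adjusted p = 2.41e-20). It is GRCm38.p6 chr10:21993640-21993889, plus strand, 5′ to 3′, with the motif in capitals beginning at base -189 from the start.
Sgk1: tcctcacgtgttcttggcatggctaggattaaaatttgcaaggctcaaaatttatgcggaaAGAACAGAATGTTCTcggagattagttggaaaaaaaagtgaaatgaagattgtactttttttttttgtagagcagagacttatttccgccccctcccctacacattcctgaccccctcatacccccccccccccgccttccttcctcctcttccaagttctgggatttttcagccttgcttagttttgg
A match of letters is a description and not a bound site.

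The 5 targets that were called were all higher in the cells without GR. Gjb2, a gap junction protein, was at 62.0, 53.6 and 63.0 CPM in GRko/ko and 11.2, 10.3 and 12.7 CPM in GRwt/wt (2.38 on the log2 scale). Glul, which makes glutamine, was at 72.2, 68.6 and 72.6 CPM against 16.3, 21.3 and 17.7 CPM (1.95), and Sesn1, a stress-responsive inhibitor of mTORC1, was at 18.4, 17.0 and 18.8 CPM against 6.36, 8.29 and 6.88 CPM (1.33). Pdk4, which restrains pyruvate dehydrogenase, was 1.09 higher on the log2 scale and just under the fold limit without GRwt/wt replicate 3 (0.994). Zbtb16, a transcription factor, was measured at 0.529, 0.283 and 0.316 CPM in GRko/ko with 19 counts in all and none in GRwt/wt, at least 1.90-fold higher. In the Dex libraries of the same run the 26 genes gave 2 called higher and 11 called lower, beside 15.9% of all autosomal genes called, 10.5% higher and 5.36% lower. The change of the genotype difference with Dex passed the adjusted p for 22 of the 26, beside 8.53% of all autosomal genes. It was toward lower values in 20 and toward higher values in 2. These 2 were Gjb2, at 2.38 under vehicle and 4.66 under Dex, and Angptl4, at -0.23 and 1.40. For them, the level in GRwt/wt relative to GRko/ko was lower under Dex than under vehicle, unlike that of a gene raised by GR. Fkbp5 had a log2 fold change of -2.46 between the genotypes under Dex, Per1 -2.24 and Mt2 -3.80.

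**Figure D3:**
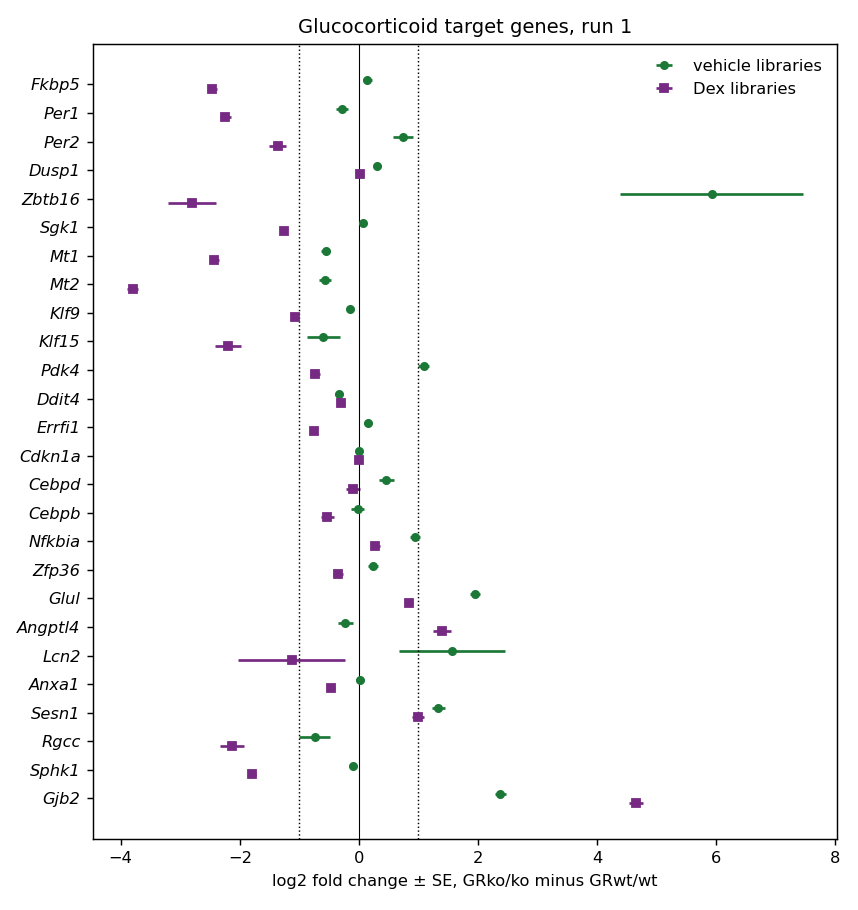
Log2 fold change between GRko/ko and GRwt/wt with its SE (horizontal axis) for 26 glucocorticoid target genes (vertical axis), circles for the vehicle and squares for the Dex libraries of run 1, with dotted lines at the fold limit. Under vehicle 5 genes were called higher and none lower, while under Dex 11 were called lower and 2 higher, Fkbp5 among the 11.

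A wider view used the genes that 1 µM Dex changed in the separate wild-type cultures of run 2, a list added after the data were seen. Of 364 genes that Dex raised there (2.44% of those tested), 86 (23.6%) were higher and 29 (7.97%) lower in GRko/ko under vehicle, with a median log2 fold change of 0.17. Of 307 genes that Dex lowered (2.05%), 89 (29.0%) were higher and 37 (12.1%) lower, with a median of 0.20. Both sets therefore differed in GRko/ko more often than the 9.79% and 4.38% of all autosomal genes, in both directions, and with medians on the same side. Of 18 partners of the receptor, such as chaperones, co-regulators and steroid enzymes, 1 was called (5.56%, beside 14.2% of all genes). This was Hsd11b1, the enzyme that regenerates active glucocorticoid from its inert form, at 0, 0.170 and 0.316 CPM in GRko/ko and 0.843, 0.822 and 1.23 CPM in GRwt/wt (-2.56), a level of few reads.

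Macrophage markers had the largest share of called genes of the 29 lists. All 20 macrophage markers tested were called higher in GRko/ko, with a median log2 fold change of 3.77. Csf1r, the receptor for the macrophage growth factor CSF1, stood at 349, 338 and 349 CPM in GRko/ko and 11.9, 18.4 and 11.1 CPM in GRwt/wt, a log2 fold change of 4.65 ± 0.11 (adjusted p = 7.29e-28). Cx3cr1, the fractalkine receptor, was at 125, 123 and 127 CPM against 0.908, 1.44 and 0.649 CPM (6.97), and Adgre1, which encodes F4/80, at 109.6, 101 and 105 CPM against 4.02, 8.63 and 5.12 CPM (4.16). In GRwt/wt, replicate 2 was the highest library for these genes and still lay below each GRko/ko library. Cd14, a co-receptor for endotoxin, C1qb, a chain of complement C1q, and Spi1, which encodes the myeloid transcription factor PU.1, were higher by 4.27, 4.39 and 4.10.

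The summed level of the 20 macrophage markers was 3896 to 4275 CPM in GRko/ko and 262.0 to 455.0 CPM in GRwt/wt. It was 914.0 to 973.0 CPM in GRD/D and 47.4 to 59.3 CPM in GRD+L/D+L. In run 2 it was 609.0 to 650.0 CPM in GRwt/wt and 1102 to 1306 CPM in GRL/L. GRko/ko had the highest level, the groups did not overlap, and the level differed widely among the groups with a receptor. Of the 20 markers, 18 were called higher in GRD/D than in GRwt/wt (1.57% of autosomal genes were) and 18 lower in GRD+L/D+L than in GRwt/wt (3.03%). In whole cultures, fewer cells of a type and less RNA per cell cannot be told apart. The leading genes outside the list included Cd52, a surface glycoprotein of leukocytes, higher by 6.71. Slco2b1, an organic anion transporter, had 557 counts over the GRko/ko libraries and 1 over the GRwt/wt libraries, a ratio of 501 (95% counting interval 89.6 to 19840.0), and Neurl3, a ubiquitin ligase, had 472 against 2, a ratio of 212 (58.5 to 1759). How far the macrophage level accounts for other genes that were higher in GRko/ko was not tested.

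**Figure D4:**
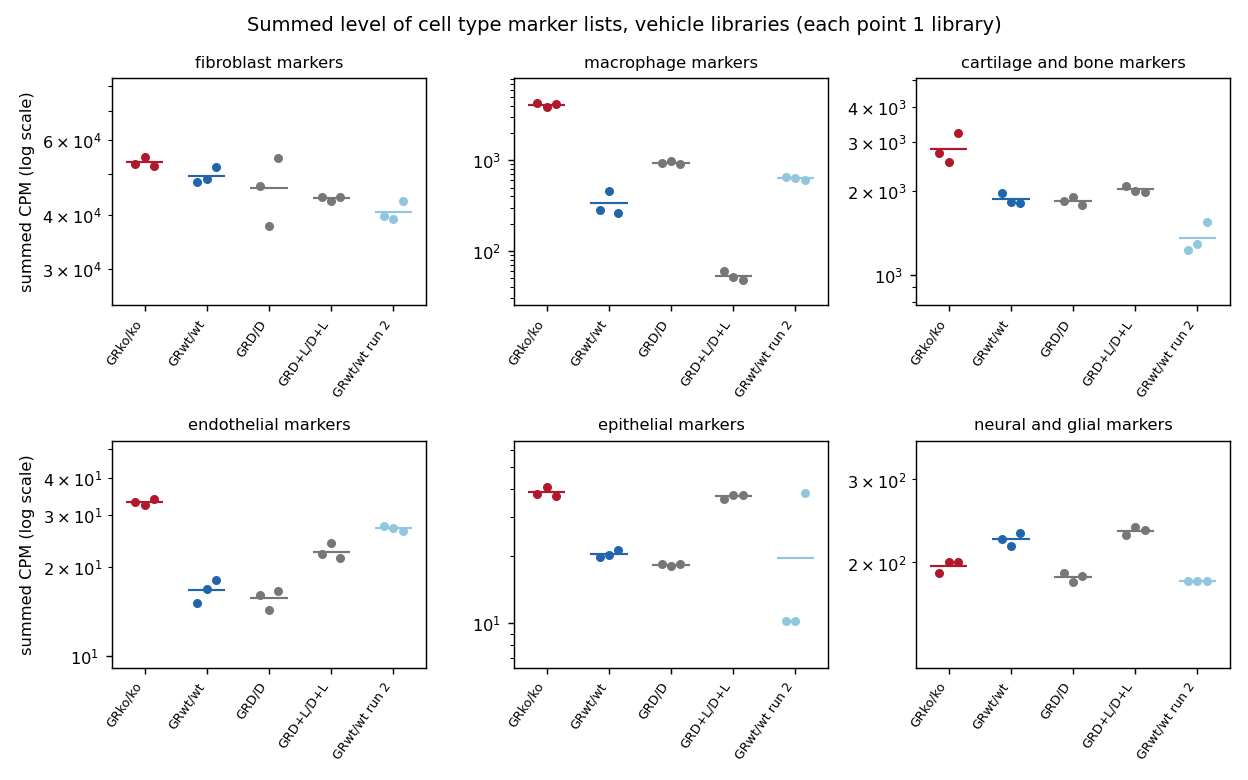
Summed CPM of 6 cell type marker lists in the vehicle libraries (vertical log axis), each point 1 library and each line the mean of 3, for GRko/ko, GRwt/wt, GRD/D and GRD+L/D+L of run 1 and GRwt/wt of run 2. GRko/ko is highest for macrophage markers (3896 to 4275 CPM), above GRwt/wt of run 1 for cartilage, endothelial and epithelial markers and below it for neural and glial markers. Against GRwt/wt of run 2, GRko/ko is above for neural and glial markers and overlaps for epithelial markers.

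Endothelial, epithelial, neural and glial markers were at much lower summed levels. Of 10 tested endothelial markers 3 were higher and none lower, a share of 30.0% beside 14.2% of all genes. Their sum was 32.4 to 33.9 CPM in GRko/ko and 15.1 to 18.0 CPM in GRwt/wt. Erg and Vwf were higher by 3.37 and 2.60, and Plvap had 19 counts against 2, a ratio of 8.55 (95% counting interval 2.06 to 75.7) that was not called without GRko/ko replicate 3 (adjusted p = 0.0523). The endothelial genes Pecam1, Tie1 and Cldn5 were too low to be tested. Of 9 tested epithelial markers 2 were higher and none lower, a share of 22.2% beside 14.2% of all genes. They were Cdh1, E-cadherin, at 1.12, 0.680 and 0.759 CPM against 0, 0.0690 and 0.0650 CPM, and Dsp, desmoplakin, higher by 1.74. The sums of the epithelial markers were 37.2 to 40.7 CPM against 19.8 to 21.2 CPM, while Epcam was too low to be tested. Of 16 neural and glial markers 7 were higher and 5 lower, beside 9.79% and 4.38% of all autosomal genes. The sum of these markers was lower in GRko/ko, a mean of 197 ± 5.54 CPM (SD, n = 3) against 224 ± 7.13 CPM. Those lower included Ngfr, the neurotrophin receptor of Schwann cell precursors, at 17.6, 20.4 and 21.1 CPM in GRko/ko and 73.1, 64.5 and 77.2 CPM in GRwt/wt, and Erbb3, their neuregulin receptor (-1.74). Those higher included Gfap, an intermediate filament of glia, at 13.2, 14.4 and 16.8 CPM against 0.324, 0.274 and 0.714 CPM, Fabp7, a fatty acid binding protein of glia (2.93), Nefl, a neurofilament (1.91), and Pax6, with 70 counts against none and so at least 6.98-fold higher. Of the 11 erythroid markers that were matched to the counts, 1 was tested and not called, and the globin genes were too low to be tested.

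Chemokines, cytokines and related genes were called in 17 of 30 cases, 12 higher and 5 lower, beside the 14.2% of all genes. Their summed level went the other way, at 3529 to 3771 CPM in GRko/ko and 4022 to 4109 CPM in GRwt/wt, with no overlap. After Cxcl12, the larger rises were C3, the central complement protein, at 6.12, 4.48 and 7.58 CPM in GRko/ko and 0.649, 0.548 and 1.23 CPM in GRwt/wt, Il33, an alarmin (2.87), Ccl20 (2.71) and Cxcl16 (2.62). Ccl11, the eosinophil attractant eotaxin, had the largest fall, from 13.7, 13.2 and 13.7 CPM in GRwt/wt to 0.647, 0.680 and 0.316 CPM in GRko/ko. Il11, a cytokine of fibrosis that was chosen after its values were seen, was lower too, at 24.7, 22.1 and 21.9 CPM against 113, 87.4 and 101 CPM (log2 fold change -2.13 ± 0.09, adjusted p = 8.35e-22). The same holds for the choice of Ccl2 and Il6, both known to be restrained by glucocorticoids, which had log2 fold changes of -0.78 and -0.63 and so lay under the fold limit.

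Of 27 interferon-stimulated genes, 11 (40.7%, beside 14.2% of all genes) were called higher and none lower, with a median log2 fold change of 0.81. Their summed level was 194 to 201 CPM in GRko/ko and 143 to 158 CPM in GRwt/wt, but 331 to 392 CPM in GRwt/wt of run 2. Against that run 2 wild type, 2 of these genes were called higher and 13 lower in GRko/ko, beside 25.7% of all genes called. Ifi44 was at 3.88, 3.29 and 2.46 CPM in GRko/ko and 0.0650, 0.137 and 0.195 CPM in GRwt/wt, and Oas2 at 1.29, 1.25 and 0.822 CPM against 0, 0 and 0.130 CPM, 57 counts against 2 and a ratio of 25.6 (95% counting interval 6.78 to 217). Oas1a, which senses double-stranded RNA as Oas2 does, Xaf1, an apoptosis factor, Ifit3 and the nucleic acid sensor Zbp1 were higher by 3.19, 2.50, 2.43 and 2.35. Zbp1 was not called without GRwt/wt replicate 1 (1.78) and was at 3.63 without GRwt/wt replicate 2. Of 19 MHC class I genes and their helpers, 4 were higher and 5 lower, a share of 47.4% beside 14.2% of all genes. The immunoproteasome subunit Psmb9 was higher by 2.63, and H2-T24 had 73 counts in GRko/ko and 2 in GRwt/wt, a ratio of 32.9 (95% counting interval 8.78 to 276). H2-Q10 had 1 count in GRko/ko and 12 in GRwt/wt, a ratio of 13.3 (95% counting interval 1.97 to 569.9), and was not called without GRko/ko replicate 2, GRko/ko replicate 3 or GRwt/wt replicate 2 (adjusted p = 0.0836, 0.0765 and 0.218), and H2-Q1 had 13 counts in GRwt/wt and none in GRko/ko, at least 1.60-fold lower. The widely expressed H2-K1 and H2-D1, chosen after their values were seen, had log2 fold changes of 0.16 and -0.84. The class I genes are near-identical copies that differ between mouse strains, so the counting of reads among them is uncertain.

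Cartilage and matrix genes formed the next group. Of 14 cartilage and bone markers 8 were higher and 1 was lower in GRko/ko, a share of 64.3% beside 14.2% of all genes. Of 40 collagen chain genes 14 were higher and 4 lower (45.0%), while the summed levels of the collagen chains overlapped between the groups. In the Dex libraries, 4 of the 14 cartilage and bone markers were called higher and 1 lower, beside 15.9% of all genes called. For the 40 collagen chain genes, 10 were called higher and 6 lower there. Col2a1, the main collagen of cartilage, stood at 214, 152 and 471 CPM in GRko/ko and 2.47, 3.36 and 2.66 CPM in GRwt/wt (log2 fold change 6.62 ± 0.39, adjusted p = 6.53e-17). Acan, the cartilage proteoglycan aggrecan, was at 7.47, 6.29 and 11.9 CPM against 1.17, 1.03 and 1.75 CPM (2.68). Both had no overlap, and Sox9, the transcription factor that directs cartilage and was chosen after its values were seen, had a log2 fold change of 0.34.

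One GRko/ko library stood apart for a part of these genes. Col9a1, a chain of collagen IX, was at 0.647, 0.283 and 29.3 CPM in GRko/ko and 0.195, 0 and 0.0650 CPM in GRwt/wt, and Col9a2 at 0.294, 0.454 and 15.2 CPM against 0, 0.206 and 0.0650 CPM, replicate 3 being far the highest. Ibsp, a bone sialoprotein, Comp, a cartilage matrix protein, and Alpl, the phosphatase of mineralising cells, were at 0.294, 0.850 and 27.6, at 1.29, 1.25 and 15.9 and at 0.647, 0.680 and 4.74 CPM in GRko/ko, again with replicate 3 the highest. Without GRko/ko replicate 3, the log2 fold change of Col9a1 was 2.31 (adjusted p = 0.0772) and that of Col9a2 was 2.01 (adjusted p = 0.061), so neither was called. In the other direction, Col9a1 was at 7.96 without GRwt/wt replicate 1 and Col9a2 at 7.07 without GRwt/wt replicate 2. Without GRko/ko replicate 3, Ibsp was at 3.53, Comp at 2.64, Alpl at 2.52 and Col2a1 at 6.01 on the log2 scale, and these 4 were still called. Alpl was at 5.67 without GRwt/wt replicate 2. Col22a1, an anchoring collagen of tissue junctions, was higher by 3.58, Col6a6 had 100 counts against 2, a ratio of 45.0 (95% counting interval 12.1 to 377), and Col26a1 had 34 against 1, a ratio of 30.6 (5.13 to 1244).

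Of 40 matrix glycoproteins and proteoglycans 11 were higher and 6 lower, a share of 42.5% beside 14.2% of all genes. Their summed level was lower in GRko/ko without overlap, 58616 to 64999 CPM against 70794 to 76743 CPM. Eln, which encodes elastin, was at 64.8, 65.9 and 75.5 CPM in GRko/ko and 1.82, 2.26 and 2.85 CPM in GRwt/wt (log2 fold change 4.89 ± 0.25, adjusted p = 1.35e-18), but at 271, 247 and 175 CPM in GRwt/wt of run 2, above the knockout. Efemp1, the elastic fibre protein fibulin-3, was at 115, 129 and 115 CPM against 18.9, 17.4 and 16.6 CPM (log2 fold change 2.76 ± 0.07, adjusted p = 6.95e-27), and Ogn, the small proteoglycan osteoglycin, was higher by 2.66 and Nid2, a basement membrane protein, by 2.01. Tnn, tenascin N, fell from 34.8, 29.8 and 42.0 CPM in GRwt/wt to 1.88, 2.44 and 2.02 CPM in GRko/ko. Omd, osteomodulin, was called higher (2.27) only with GRko/ko replicate 3 present, and was at 0.52 without it. Among the fibroblast markers, Col3a1 and Lum, the proteoglycan lumican, were higher by 1.37 and 1.23, Dcn, decorin, and Twist2 lower, at -1.04 and -1.02, and Lum was at 0.52 without GRko/ko replicate 3 and not called. Dcn and Twist2 lay close to the fold limit, and Dcn was under it without GRko/ko replicate 1 or 2 (-0.88 and -0.94), as was Twist2 without GRwt/wt replicate 1 (-0.98). Col1a1 and Vim, chosen after their values were seen, had log2 fold changes of 0.12 and -0.24.

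Among 33 metalloproteases and inhibitors, 7 were higher and 1 lower, a share of 24.2% beside 14.2% of all genes. Mmp12, the macrophage elastase, was at 62.6, 58.6 and 56.5 CPM in GRko/ko and 17.1, 19.9 and 14.7 CPM in GRwt/wt (1.78), and Mmp8, Adamts8 and Adamts17 were higher by 3.37, 4.16 and 2.58. The inhibitor Timp4 had 6 counts in GRko/ko and none in GRwt/wt, under the floor of 3 counts per library, and was not called without GRko/ko replicate 1 (adjusted p = 0.0562). Mmp10, stromelysin 2, was lower, at 4.71, 5.04 and 4.99 CPM against 17.3, 15.7 and 15.2 CPM.

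Hox genes encode position along the axis of the embryo, in the order in which they stand in their clusters. Of 37 Hox genes, 3 were higher and 11 lower in GRko/ko, a share of 37.8% beside 14.2% of all genes. The 3 that were higher were Hoxa2, Hoxa3 and Hoxa5, of the anterior part of their cluster, and all 11 that were lower carried paralogue numbers from 8 to 13. Hoxc10 was at 1.18, 0.680 and 0.569 CPM in GRko/ko and 16.5, 15.7 and 17.1 CPM in GRwt/wt (log2 fold change -4.33 ± 0.17, adjusted p = 5.32e-22), and Hoxc11 at 0.0590, 0.0570 and 0 CPM against 2.60, 2.67 and 1.56 CPM. Hoxc12 had 22 counts in GRwt/wt and none in GRko/ko, at least 2.72-fold lower, while Hoxc13 and Hoxd9 were lower, at -1.82 and -1.66 and Hoxa3 higher by 1.57. In GRwt/wt of run 2 Hoxc10 was at 19.1, 19.2 and 20.2 CPM, near the wild type of run 1.

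Of 40 T-box, limb and trunk patterning genes, 13 were higher and 6 lower, a share of 47.5% beside 14.2% of all genes. Their sum was lower in GRko/ko without overlap, 435 to 449 CPM against 483 to 499 CPM. Pax1, a gene of the sclerotome that forms vertebrae, was at 2.23, 2.097 and 3.35 CPM in GRko/ko and 0.195, 0.137 and 0 CPM in GRwt/wt, Foxd1, of kidney stroma, at 19.5, 16.4 and 19.5 CPM against 0.389, 1.23 and 1.23 CPM, and Dlx5, of bone-forming mesenchyme, at 2.47, 2.32 and 2.02 CPM against 0.260, 0.274 and 0.0650 CPM. Nkx3-2, also of the sclerotome, was higher by 1.97. Gata4 was called higher (2.23) and lost the call without GRko/ko replicate 3 (1.90) or without GRwt/wt replicate 1 (1.66).

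Insulin-like growth factor (IGF) genes were higher in GRko/ko in 6 of 19 cases and lower in none, a share of 31.6% beside 14.2% of all genes. Their summed level was 2933 to 3044 CPM in GRko/ko and 2995 to 3257 CPM in GRwt/wt, which overlap. Igf1 stood at 82.2, 92.2 and 95.1 CPM in GRko/ko and 11.4, 12.7 and 12.8 CPM in GRwt/wt (log2 fold change 2.87 ± 0.10, adjusted p = 1.75e-23). Igf2, the fetal growth factor, was at 52.1, 49.1 and 55.8 CPM against 4.35, 4.45 and 3.96 CPM (3.62), and the binding proteins Igfbp2, Igfbp3 and Igfbp4 were higher by 2.86, 3.50 and 2.19. Igfbpl1 had 62 counts against 1, a ratio of 55.8 (95% counting interval 9.65 to 2239). In GRwt/wt of run 2, Igf1 was at 102, 98.5 and 86.6 CPM and Igfbp3 at 489.5, 486 and 482 CPM, above the run 1 wild type at 11.4, 12.7 and 12.8 and 18.3, 22.1 and 18.2 CPM. Igfbp3 in GRko/ko was at 191, 213 and 258 CPM, below that run 2 level.

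Of 30 imprinted genes, which are expressed from 1 parental allele, 4 were higher and 1 lower, a share of 16.7% that is near the 14.2% of all autosomal genes. H19, a noncoding RNA that shares its control region with Igf2, stood at 1299, 1208 and 1834 CPM in GRko/ko and 279.8, 298 and 284 CPM in GRwt/wt (2.33), and at 3221, 3160.0 and 2904 CPM in GRwt/wt of run 2. Mest and the amino acid transporter Slc38a4 were higher by 2.02 and 2.46, and Nnat, neuronatin, lower, at -1.29. The reciprocally imprinted pair Dlk1 and Meg3, chosen after their values were seen, had log2 fold changes of 0.41 and -0.33, under the fold limit.

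Of 32 Wnt pathway genes 10 were higher and 3 lower, a share of 40.6% beside 14.2% of all genes. Their summed level was lower in GRko/ko without overlap, 664 to 690.0 CPM against 843 to 886 CPM. Rspo2, a secreted enhancer of Wnt signalling, was at 18.6, 19.2 and 17.1 CPM in GRko/ko and 1.04, 0.754 and 0.649 CPM in GRwt/wt (log2 fold change 4.48 ± 0.15, adjusted p = 7.53e-24), and at 47.6, 49.3 and 47.8 CPM in GRwt/wt of run 2. The ligands Wnt10a and Wnt16 were higher by 2.52 and 1.89, whereas the ligand Wnt4 and the secreted antagonist Frzb were lower, at -2.77 and -2.20. The antagonist Wif1 was called higher (3.50) with GRko/ko replicate 3 and was at 1.90, not called, without it, and at 4.75 without GRwt/wt replicate 3.

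Of 34 genes of the TGF-beta and bone morphogenetic protein (BMP) pathways 10 were higher and 3 lower, a share of 38.2% beside 14.2% of all genes. Their summed levels overlapped between the groups. Bmp4 was at 14.8, 14.5 and 15.9 CPM in GRko/ko and 2.01, 1.85 and 2.40 CPM in GRwt/wt (log2 fold change 2.85 ± 0.12, adjusted p = 6.79e-21). Bmp2 and Bmp5 were higher by 2.21 and 2.46, and Bmp7 had 49 counts in GRko/ko and none in GRwt/wt, at least 4.88-fold higher. Gdf5, the joint-forming ligand, had 15 counts in GRko/ko and none in GRwt/wt, at least 1.55-fold higher, and was not called without GRko/ko replicate 3 (adjusted p = 0.0833).

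Of 17 genes of the retinoic acid pathway 5 were higher and 2 lower, a share of 41.2% beside 14.2% of all genes. Their summed level was lower in GRko/ko without overlap, 474 to 496 CPM against 667 to 719 CPM. Aldh1a1, an enzyme that makes retinoic acid, was at 4.18, 4.25 and 5.94 CPM in GRko/ko and 0.519, 0.685 and 0.973 CPM in GRwt/wt, and Dhrs3, which turns retinal back to retinol, at 35.4, 31.3 and 35.7 CPM against 7.33, 8.49 and 8.50 CPM. The cellular binding proteins differed in opposite directions: Crabp1 fell from 418, 364 and 404 CPM in GRwt/wt to 127, 128 and 117 CPM in GRko/ko, and Crabp2 was higher by 1.14. Rarres2, which encodes the attractant chemerin, was lower, at -2.47, and Rbp4, the retinol carrier, was at 1.06, 1.02 and 11.8 CPM against 0.779, 0.274 and 0.259 CPM. Without GRko/ko replicate 3, the highest library, the log2 fold change of Rbp4 went from 3.34 to 1.22 and was still called, and it was 4.05 without GRwt/wt replicate 1.

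Of 19 skeletal muscle genes tested 13 were called higher in GRko/ko and none lower, a share of 68.4% beside 14.2% of all genes. However, the summed level of the list was lower, at 390.0 to 440.0 CPM in GRko/ko and 670.0 to 778 CPM in GRwt/wt. Most of that sum was Acta1, skeletal muscle actin, chosen after its values were seen, at 387, 381 and 338 CPM in GRko/ko and 756, 648 and 751 CPM in GRwt/wt (-0.96, past the adjusted p and just under the fold limit, which it passed without GRko/ko replicate 1 or without GRwt/wt replicate 2). The 13 genes called higher each stood far below Acta1 in level. Myh3, the embryonic myosin heavy chain, was at 3.29, 3.35 and 2.65 CPM in GRko/ko and 0.0650, 0 and 0 CPM in GRwt/wt, and Actc1, a cardiac and fetal muscle actin, at 1.94, 2.38 and 2.53 CPM against 0.0650, 0 and 0 CPM. Myog, the regulator of muscle differentiation, was at 0.412, 0.794 and 0.695 CPM against 0, 0.0690 and 0 CPM, and Myl1, a fast myosin light chain, Myh7 and Myh8 had 31, 40 and 44 counts against none, at least 3.06-fold, 3.95-fold and 4.36-fold higher. Myh3, Actc1 and Myog had 1 count each over the GRwt/wt libraries, and the ratio was 104 (95% counting interval 18.2 to 4124) for Actc1 and 28.8 (4.81 to 1173) for Myog. Myod1 and Myf5, which define the lineage, were too low to be tested. Of 23 smooth muscle and contractile genes 3 (13.0%, beside 14.2% of all genes) were higher, with a summed level of 19312 to 19757 CPM in GRko/ko and 20974 to 21992 CPM in GRwt/wt and so lower in GRko/ko. The 3 were Synm, synemin, Des, desmin, and Pgm5, a muscle adhesion protein, higher by 2.45, 1.40 and 1.24, and Acta2, chosen after its values were seen, had a log2 fold change of -0.14.

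Of 18 adipocyte genes 3 were higher and none lower, a share of 16.7% beside 14.2% of all genes. Cebpa, a transcription factor of the lineage, was at 42.6, 41.6 and 45.5 CPM in GRko/ko and 8.50, 9.73 and 7.98 CPM in GRwt/wt, Cd36, a fatty acid transporter that macrophages also carry, at 24.6, 22.6 and 19.5 CPM against 6.29, 7.67 and 5.51 CPM, and Lpl, lipoprotein lipase, at 67.1, 71.4 and 59.9 CPM against 19.5, 22.5 and 16.8 CPM. Of 27 glutathione and antioxidant genes 3 were higher and 3 lower, a share of 22.2%. Gsta4 and Gstp2, glutathione transferases, and Sod3, the extracellular superoxide dismutase, were lower, Gsta4 at 7.94, 8.56 and 8.53 CPM against 36.01, 38.0 and 35.0 CPM, Sod3 at -1.84 on the log2 scale, and Gstp2 with 2 counts in GRko/ko and 39 in GRwt/wt, a ratio of 21.7 (95% counting interval 5.61 to 185). Cyp1b1, Gpx8 and Gstt1 were higher by 1.15, 1.21 and 1.12. Gstt1 was not called without GRko/ko replicate 2 or GRwt/wt replicate 1 (0.74 and 0.80).

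Some functions held almost no called gene. None of 23 sterol synthesis genes and none of 31 cell cycle genes was called in either direction, with medians of -0.18 and 0.18 on the log2 scale. Mki67 and Top2a, proteins of dividing cells, stood at 0.72 and 0.34, and Hmgcs1, an early enzyme of sterol synthesis, at -0.10. Of 20 CDK inhibitors and p53 targets 1 was called (5.0%, beside 14.2% of all genes), Cdkn2c, an inhibitor of CDK4 and CDK6, higher by 1.22. An adjusted p past the limit was more frequent than a call: 23 of the 31 cell cycle genes and 12 of the 23 sterol genes passed it, beside 6813 of all 14942.

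For some of the genes above that held few reads in one group, 1 library set the size of the difference but not the call. Without GRwt/wt replicate 1, Cd52 was at 7.63, Adamts8 at 5.41, Adamts17 at 3.17 and Pax1 at 5.12. Without GRwt/wt replicate 3, Bmp5 was at 3.36, Nefl at 3.04 and Fgf1 at 4.19. Without GRko/ko replicate 2, BC023719 was at -8.65, Gm8909 at -8.27 and H2-Q2 at -7.71, and without GRko/ko replicate 3 Hsd11b1 was at -3.40. Each of these values was farther from 0 than with all 6 libraries. For Slco2b1, Rps13-ps1, Oas2, Col6a6, Col26a1, Myh3, Actc1, Myog, Igfbpl1, Gstp2 and H2-Q10, a single library held every count of the genotype near 0, and the fitted value without it depends on the prior count. Of these, H2-Q10 also lost its call without some single libraries, as given above.

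**Figure D5:**
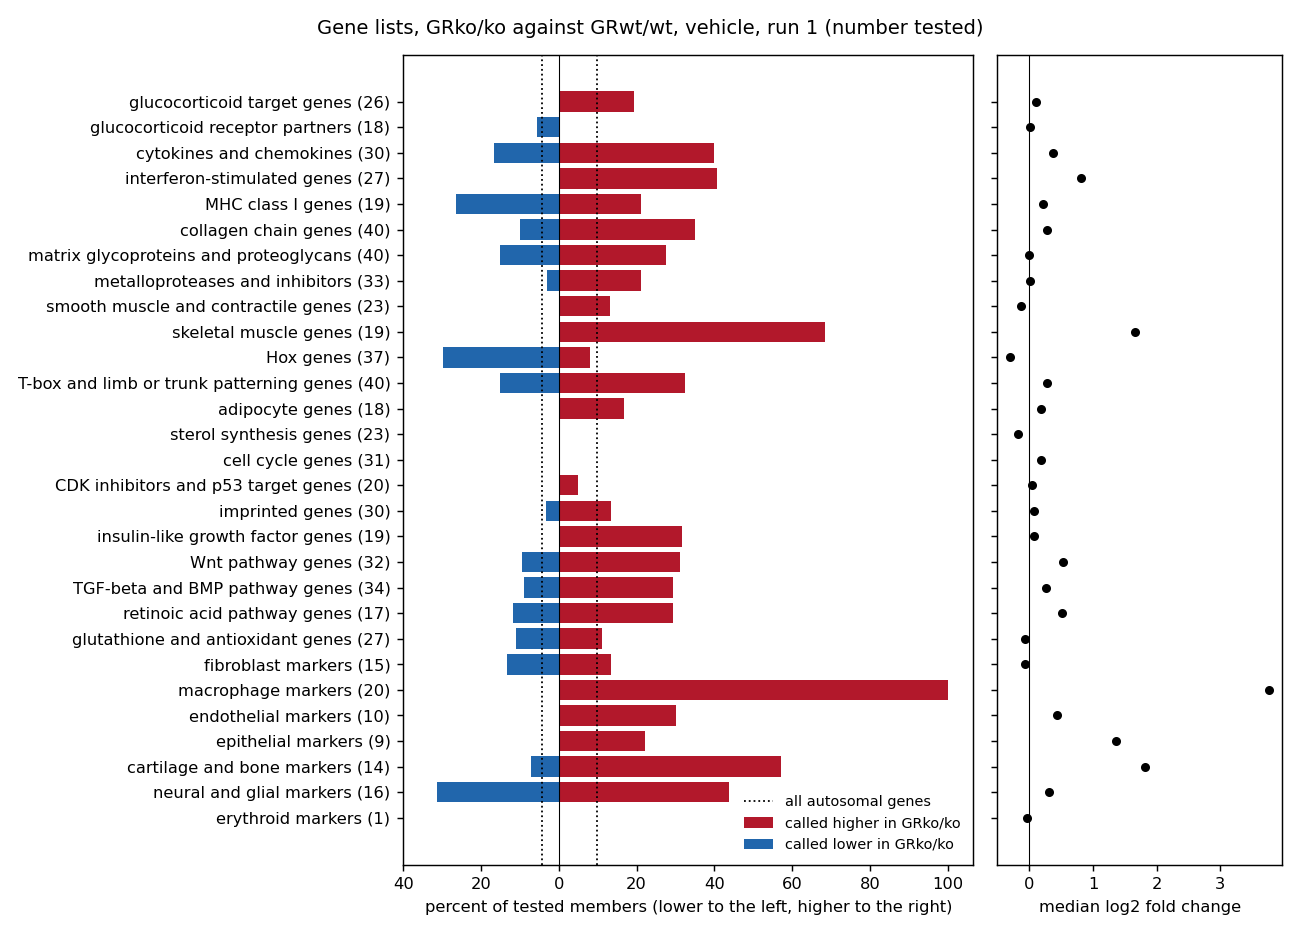
Percent of the tested members of each of 29 gene lists called higher (red, to the right) or lower (blue, to the left) in GRko/ko under vehicle, with dotted lines at 9.79% and 4.38% for all autosomal genes, and at the right the median log2 fold change of each list. Macrophage markers reach 100%, with a median of 3.77, the Hox list is mostly blue, and the sterol and cell cycle lists have no called member.

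The differences lay on every autosome. The share called ran from 9.07% of 816 genes on chromosome 8 to 18.4% of 792 genes on chromosome 6, and was 11.7% on chromosome 18, where Nr3c1 lies. Of the 20 tested genes nearest to Nr3c1, 10 on each side, 3 were higher and 2 lower, beside 9.79% and 4.38% of all autosomal genes. The higher ones were Fgf1, a growth factor 2 genes away at 1.24, 1.47 and 1.26 CPM in GRko/ko and 0, 0.137 and 0.259 CPM in GRwt/wt, Ppp2r2b, a regulatory subunit of protein phosphatase 2A (3.06), and Stk32a, and the lower ones were AC134576.3 and Gm3650. These 5 were chosen by their place beside Nr3c1 after their values were seen.

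The Dex libraries of run 1 allow the genotype difference to be read again in other libraries of the same genotypes. There, 2373 autosomal genes (15.9%) were called, 1572 higher and 801 lower in GRko/ko. Of the vehicle calls, 1726 were called in the same direction under Dex, which is 81.5% of the vehicle calls and 72.7% of the Dex calls, and 8 were called in the opposite direction. The genotype difference itself changed between the treatments past the adjusted p for 1274 genes (8.53%), of which 215 were among the 2118 vehicle calls. The series describes 3 cultures per genotype, so the vehicle and Dex libraries may share cultures, and the labels do not link them. In the Dex libraries, GRko/ko replicate 3 held more of Gm10260, a locus near 0 in that genotype, than the others (1.28, 0.972 and 10.5 CPM), and GRwt/wt replicates 2 and 3 held more Rps3a3, near 0 in theirs, than replicate 1 (0.118, 2.46 and 1.29 CPM), so traces of the other genotype's pattern were measured there. Leaving out GRko/ko Dex replicate 3 gave 2361 Dex calls.

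Cxcl12, Csf1r, Igf1, Eln and Efemp1 kept their direction under Dex, with log2 fold changes of 5.19, 4.54, 3.25, 4.82 and 2.85. So did Syt13 and Hoxc10, at -2.33 and -3.49. Il11 did not: its log2 fold change was -2.13 under vehicle and 0.10 under Dex, where GRko/ko stood at 26.2, 21.5 and 27.1 CPM and GRwt/wt at 26.3, 20.4 and 23.1 CPM, and the difference between the treatments was 2.23 (adjusted p = 1.04e-15). Fkbp5 moved the other way, from 0.14 under vehicle to -2.46 under Dex, a difference of -2.60 (adjusted p = 1.56e-20).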

How the data were processed

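RNA from primary MEFs had been made into Illumina TruSeq libraries, and the authors aligned the reads to mm10 with HISAT2 2.1.0, kept uniquely mapped reads and made gene counts with featureCounts 2.0.0. The annotation and the handling of strand are not given in the sources used here. The deposited table holds raw counts of 55487 Ensembl genes in 36 libraries, all of which were mapped to samples by their names. Names and positions came from a GENCODE M21 (GRCm38) table for 55227 of these genes, and promoter sequence came from RefSeq (GRCm38.p6).

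All 36 libraries entered one edgeR 4.0.16 quasi-likelihood fit (R 4.3.3) with 12 means of genotype, treatment and run, TMM normalization, edgeR's expression filter and Benjamini-Hochberg adjustment over all 15489 genes tested. Calls needed an adjusted p within 0.05 and a log2 fold change of 1 or more in either direction, as in the study's methods. CPM was computed from the counts and library totals scaled by TMM, and summed over the members of each marker list. For genes with 0 counts in a group a bound was computed at a floor of 3 counts per library, and for 1 to 3 counts a ratio with an exact 95% interval. Such intervals cover counting error only.

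Genes were named by a rule: Nr3c1, Fkbp5 and Dusp1, the 12 largest rises and falls among genes averaging 50 counts or more whose groups did not overlap, the 5 smallest adjusted p in each direction, and up to 6 called members of each list by size. For others the text says that the choice followed their values, and some genes that meet the rule are not reported here. The members and lists were chosen with earlier results of these data known. On data simulated for the vehicle contrast over 15349 genes, 96% of genes changed by 1.5 on the log2 scale and 84% of those changed by 0.5 were recovered, with 3.74% false among those past the adjusted p. The simulation gave every gene the same dispersion and changed only genes above a limit on mean count. The real genes differ in spread and include calls of few counts, so these shares cannot be carried over to the real contrast. No library pair of a group agreed within sampling noise, and each library counted as 1 replicate because the study describes 3 cultures per genotype. That check cannot tell separate cultures from parallel wells of the same culture. In every group the 3 libraries shared the same pattern of Xist and Y-linked genes. The biological coefficient of variation of the fit was 0.051. Whether the libraries of a group came from separate embryos was not tested. The p-values rest on a spread estimated over all 36 libraries. Alternatives were DESeq2 1.42.0, its size factors, other filters, samples, thresholds and models, a replicate block and each library left out.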

Additional observations from a re-analysis of the deposited data

Results flagged for a closer look

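The genotype difference of 36 named genes itself differed between the Dex and the vehicle libraries of run 1 by the interaction term of the edgeR fit (adjusted p of at most 0.05). Values are the log2 difference of GRko/ko minus GRwt/wt under Dex less that under vehicle, each between 3 libraries per group. Among the genes known as glucocorticoid targets, it was toward lower values in GRko/ko for Fkbp5 (-2.60), Per1 (-1.95), Sgk1 (-1.33), Mt1 (-1.88), Mt2 (-3.23), Klf9 (-0.93), Nfkbia (-0.67), Dusp1 (-0.29), Glul (-1.11), Pdk4 (-1.83) and Zbtb16 (-8.72), the last with no count in GRwt/wt under vehicle, so that its value depends on the prior count. Gjb2 (2.28) went toward higher values.

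Il6 (2.38), Il11 (2.23), Ccl2 (1.08), Cxcl16 (0.60), Mmp10 (0.95), Bmp4 (0.75), Twist2 (0.83), Crabp2 (0.52), Syt13 (0.61), Slc6a17 (0.84), Snx9 (0.26) and Nr3c1 itself (0.65) moved toward higher values in GRko/ko against GRwt/wt under Dex. Cxcl12 (-0.38), Synm (-0.78), Cebpa (-0.64), Aldh1a1 (-1.505) and Dhrs3 (-0.70) moved toward lower values.

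For loci near 0 in one genotype, the differences were Rps3a3 (-1.75), Rps13-ps1 (-4.41), Rps15a-ps8 (-5.66), Serpina3i (1.85), Gm10260 (1.99), Gm13394 (1.70) and H2-T10 (1.79). Without GRko/ko Dex replicate 3, Serpina3i was at 0.44, Gm10260 at 0.09, Gm13394 at -0.15 and H2-T10 at 0.50, none of them past the adjusted p. Rps3a3 was at -0.89 (adjusted p = 0.402) without GRwt/wt Dex replicate 2 and at -1.73 (adjusted p = 0.0591) without GRwt/wt Dex replicate 3. Rps13-ps1 and Rps15a-ps8 passed the adjusted p with each of the 12 libraries left out in turn, at values that depend on the prior count. The other 5 loci also missed the adjusted p without 1 of some vehicle libraries. Dusp1, Cxcl12, Cxcl16, Mmp10, Synm, Bmp4 and Crabp2 missed it with 1 of some of the 12 libraries left out, in the same direction.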

How the results depend on the processing

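Requiring at least 10 counts in every library left 792 calls for GRko/ko against GRwt/wt under vehicle, 62.4% of them higher, 927 under Dex, 741 against GRD/D, 806 against GRD+L/D+L, and 82 and 282 for GRD/D and GRD+L/D+L against GRwt/wt, because genes that are near 0 in any library are then not tested. In the same order, the adjusted p alone gave 6813, 7593, 7229, 7656, 1421 and 4463 genes, and a log2 limit of 2 gave 1075, 1168, 934, 1057, 44 and 302. The filter on a mean count of at least 50, chosen after seeing the data, gave 940. Genes whose genotype difference changed with Dex numbered 1274, and 2226 with run as an additive term, where the cause was not tested. Leaving out 1 library gave 2069 to 2130 vehicle calls, 2301 to 2383 Dex calls, 2019 to 2118 and 2142 to 2197 against the point mutants, 252 to 344 and 767 to 808 for the point mutants against GRwt/wt, and 999 to 1231 for the change with Dex. Leaving out GRko/ko replicate 3 and GRwt/wt replicate 2 together, also chosen after seeing the data, gave 2014.

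The vehicle count under the other settings was 2093 with DESeq2, 2124 with its size factors, 2391 without a filter, 1782 with the compared groups alone, 2026 with run 1 alone, 2184 with run as a term and 2123 without X, Y and mitochondrial genes. Replicate numbers are shared between the groups, but the deviations of same-numbered libraries had correlations of -0.011, -0.034 and -0.069, so the numbers were not taken as pairs. The replicate block gave 2021 vehicle calls, of which 1999 were among the 2118. Of 173 named genes, 155 kept their direction and their side of the thresholds in every alternative in which they were tested, and none reversed. The 319 pairs of list and alternative kept their count within 1.5 times in 265. Depth limits the genes of few reads: 58 called genes had 0 counts in all GRwt/wt and 25 in all GRko/ko libraries.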
